A study of Mus musculus with 4 samples.

Results

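Kinesins are motor proteins that walk along microtubules or take them apart. The 43 genes described here are the protein-coding genes named Kif or Kifc followed by a number in GENCODE M21 (mouse, GRCm38), out of 26561 genes in the count table, and all 43 that the annotation holds were found there. RNA was sequenced from MC38, a colon tumour line of the mouse that the labels give as wild type. Of 4 libraries, 2 came from unirradiated cells and 2 from cells taken 60 h after X-rays of 30 Gy given at once. When the unirradiated cells were harvested is not stated in the labels, so time in culture and cell density cannot be told apart from irradiation. It is not stated either whether replicates were grown as separate cultures. The p-values then rest on the spread of these libraries alone, and that spread may be technical.

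Library totals ran from 26059171 to 29881492 counts. Genes with any count numbered 19413 and 19531 in the unirradiated and 22713 and 22663 in the irradiated libraries. What part this has in the rises of rare kinesins was not tested. The line is labelled epithelial, but only 2 of 6 epithelial markers (Cdh1 and Krt19) lay above 1 CPM (counts scaled to the size of the library) in every library, and neither unirradiated library held a count of Epcam or Krt18, whereas 6 of 6 mesenchymal markers lay above 1 CPM. The summed level of 5 leukocyte markers was 4.11 to 4.99 CPM in unirradiated and 33.2 to 39.3 CPM in irradiated libraries, nearly all of it Cd68, and Ptprc stayed under 1 CPM in every library. Their part in the results on kinesins was not tested.

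In dividing cells one set of kinesins builds and steers the mitotic spindle: some push the poles apart, some move chromosomes, and some bundle the midzone where the cell will cleave. Another set carries vesicles, mitochondria and other cargo through the cytoplasm in every phase of the cycle. Messages of many spindle genes are made mainly in G2 and mitosis, through promoters that hold a CCAAT box and a short element called the cell cycle genes homology region (CHR), which the DREAM and MuvB complexes bind. The genes were grouped as 10 mitotic motors, 5 other spindle motors, 18 transport motors, 6 kinesins of cilia or the Hedgehog pathway, 3 divergent kinesins and 1 gene, Kif1bp, whose product binds kinesins but is no motor.

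The stretches just upstream of RefSeq starts are shown first because most promoter windows of the mitotic motors hold a match to the CHR. Most of those found for transport motors lack one. Each stretch is the 120 bases before the start in RefSeq (GRCm38.p6), written 5′ to 3′ on the gene's strand. Capitals mark the CHR hexamer (TTTGAA or TTTAAA), the CCAAT box, and an octamer of the E2F type (TTTCCCGC or TTTGGCGC). Every motif was searched on both strands, so a box on the other strand reads ATTGG and a hexamer there reads TTCAAA. The mitotic motors are Kif11 (chr19:37376262-37376381, plus strand), Kif14 (chr1:136467728-136467847, plus), Kif18b (chr11:102925125-102925244, minus) and Kif2c (chr4:117178773-117178892, minus). The starts of Kif14 and Kif2c lie 1505 and 3867 bases inside the outermost 5′ end of the gene in GENCODE M21, and 87 and 28 bases from the nearest 5′ end of a transcript there. The transport motors are Kif1c (chr11:70700428-70700547, plus) and Kif3b (chr2:153291296-153291415, plus).
Kif11: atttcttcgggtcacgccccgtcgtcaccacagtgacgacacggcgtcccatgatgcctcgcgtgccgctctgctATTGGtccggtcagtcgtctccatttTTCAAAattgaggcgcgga
Kif14: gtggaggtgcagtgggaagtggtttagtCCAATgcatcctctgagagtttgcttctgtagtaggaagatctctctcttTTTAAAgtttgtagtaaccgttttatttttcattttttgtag
Kif18b: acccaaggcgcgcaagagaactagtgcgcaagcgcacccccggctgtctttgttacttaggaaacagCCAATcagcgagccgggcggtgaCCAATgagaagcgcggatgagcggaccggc
Kif2c: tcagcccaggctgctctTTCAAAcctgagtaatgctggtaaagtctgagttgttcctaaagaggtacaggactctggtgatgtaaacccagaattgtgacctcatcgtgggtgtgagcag
Kif1c: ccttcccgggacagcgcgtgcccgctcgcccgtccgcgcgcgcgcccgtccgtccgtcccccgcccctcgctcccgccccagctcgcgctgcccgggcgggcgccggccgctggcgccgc
Kif3b: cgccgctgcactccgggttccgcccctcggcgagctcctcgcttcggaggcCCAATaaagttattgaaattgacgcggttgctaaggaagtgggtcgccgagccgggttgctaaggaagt

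In Kif11 a CCAAT box on the other strand stands upstream of a hexamer that begins at -19 from the start, and in Kif14 a box begins at -92 and a hexamer at -42. Kif18b holds a pair of boxes here, at -53 and -30, and its hexamer begins at 4, just after the start. Of the windows not shown, that of Kif22 holds a box at -54 and a hexamer at -17, and in Kif15 an E2F-type octamer at -27 is followed directly by a hexamer at -19. The hexamer of Kif2c begins farther upstream, at -103, with a further one at -234 outside the stretch shown. Kif1c holds none of the motifs in this stretch and Kif3b holds a CCAAT box alone. Over the whole window of 250 bases before to 50 after the start, 9 of the 10 mitotic motors had a promoter entry and Kif20a had none. Of those 9, 8 held a CHR hexamer, and in 7 it lay no farther than 100 bases upstream of the start, a place where 12.8% of all 32851 promoters in the table and 7.81% of the promoters of tested genes hold one. In Kif23 and Kif4 it lay just after the start, beginning at 3 and 20. A hexamer and a CCAAT box stood together in that near-start window in 6 of 9 mitotic motors against 2.21% of the promoters of tested genes. Both counts include Kif14 and also Kif4, whose RefSeq start lies 328 bases inside the gene's outermost 5′ end. Kif18a held no hexamer but an E2F-type octamer at -10. Such an octamer is found anywhere in the window in 1.56% of all promoters and 2.78% of the promoters of tested genes. Among transport motors, 1 of 13 promoters, of 11 genes, held a hexamer near the start, at a downstream start of Kif1a, a gene barely detected here. A CCAAT box stood near the start in 23.1% of these promoters, beside 24.9% of the promoters of tested genes. Kif5a, Kif5b, Kif13b, Kif21b, Kif28, Kifc2 and Kifc3 had no promoter entry. Of the other spindle motors, Kif20b, Kifc1 and Kifc5b held a hexamer just after the start and Kif2a and Kif2b held none. Hexamers near the start were also found in Kif26b and Kif27. A match describes letters and is no measured binding site.

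**Figure D1:**
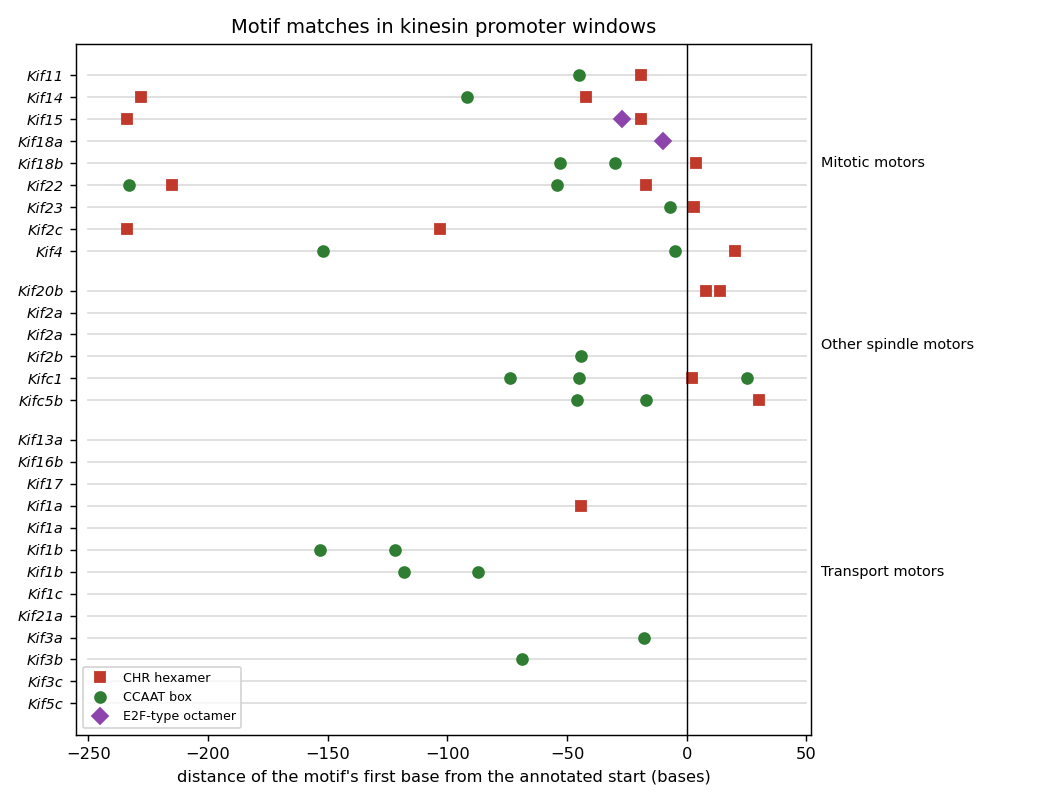
Positions of CHR hexamers, CCAAT boxes and E2F-type octamers (x axis, bases from the annotated start to the motif's first base) in the promoter windows of spindle and transport kinesins, 1 line per RefSeq start. Hexamers near the start appear in 7 of 9 mitotic motors and at 1 of 13 starts of transport motors.

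Of the 43 genes, 37 passed the filter on low counts. Among these 22 rose, 7 fell and 8 did not pass the test, where 60.7% of all tested genes passed in one direction or the other. The 22 include Kif26b, which passed the filter only through its irradiated libraries. The mitotic motors were higher in irradiated cells in 9 of 10 cases, and none was lower. The test was the quasi-likelihood test of edgeR, a count model for RNA-seq, with Benjamini-Hochberg adjustment over 15298 genes, by which 30.4% of all genes were higher and 30.3% lower at an adjusted p under 0.05. For all 10, each irradiated library exceeded each unirradiated one, where 39.7% of all tested genes do. The median log2 fold change of the 10 was 0.39, or 1.31-fold, beside 0.01 over all tested genes. Their summed level was 1173 and 1209 CPM in the unirradiated and 1709 and 1686 CPM in the irradiated libraries, a ratio of means of 1.43. In a culture, more cells in G2 or mitosis and more message per such cell cannot be told apart.

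**Figure D2:**
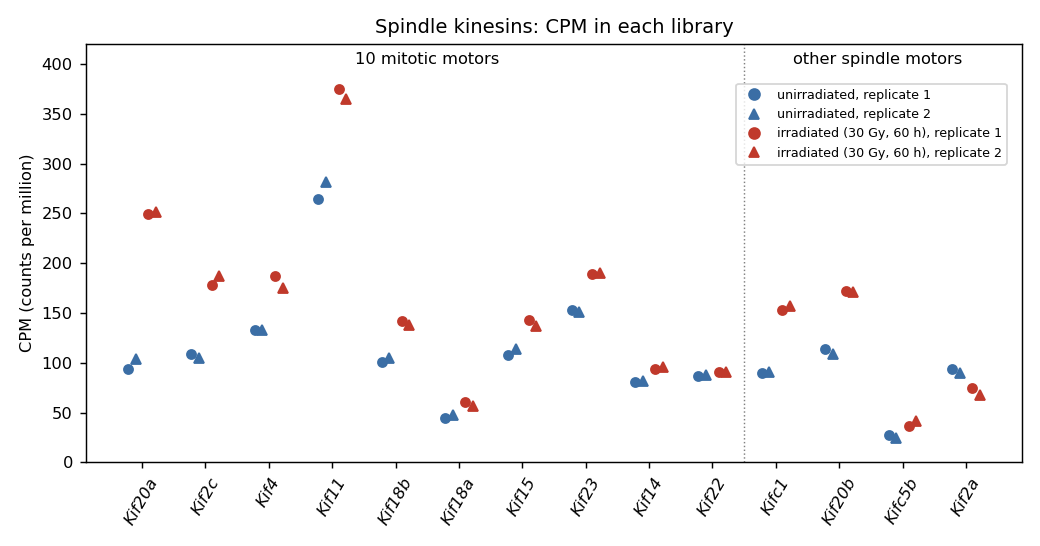
CPM of the mitotic and other spindle motors in each library (y axis, linear from 0; circles replicate 1, triangles replicate 2). Kif20a moves from 94.0 and 104 CPM to 249.6 and 252 CPM, Kif22 from 86.9 and 88.2 to 90.6 and 91.0 CPM, and Kif2a is the one spindle motor whose irradiated libraries lie below.

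Kif20a, which carries the chromosomal passenger complex to the midzone, changed most among them. Its level (ENSMUSG00000003779, chromosome 18, 34624613 to 34633277, plus strand) was 94.0 and 104 CPM without irradiation and 249.6 and 252 CPM after it. The rise was 2.53-fold (log2 fold change 1.34, SE 0.04, edgeR adjusted p = 2.88e-223). Its exons overlap those of Cdc23 on the other strand over 29.3% of their length, and Cdc23 itself did not pass (0.12 on the log2 scale, adjusted p = 0.0839). Kif23, the motor of the centralspindlin complex that bundles the midzone, moved far less, from 153 and 151 to 189.5 and 190.2 CPM (log2 fold change 0.32, SE 0.04, edgeR adjusted p = 1.16e-14). Kif14, which acts with citron kinase in cytokinesis, went from 80.7 and 81.2 to 93.7 and 95.4 CPM (0.22, SE 0.05, edgeR adjusted p = 6.68e-05). These midzone and cleavage motors all rose, by unequal amounts.

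Kif2c, a depolymerase that corrects wrong attachments at the centromere, was next to Kif20a. It lies on chromosome 4, 117159639 to 117182639, minus strand, and went from 109 and 105 CPM to 178 and 187 CPM (log2 fold change 0.77, SE 0.04, edgeR adjusted p = 8.70e-67). Kif4, a chromokinesin that also shortens midzone microtubules, went from 133 and 132 CPM to 187 and 175 CPM (0.45, SE 0.04, edgeR adjusted p = 2.84e-25). Its exons overlap Pdzd11 on the other strand, which did not pass the test (adjusted p = 0.999). The other chromokinesin, Kif22, pushes chromosome arms from the poles and is the mitotic motor that did not pass. Kif22 had 86.9 and 88.2 CPM in unirradiated and 90.6 and 91.0 CPM in irradiated libraries (log2 fold change 0.05, SE 0.05, edgeR adjusted p = 0.392), although its promoter holds both motifs. The Kif22 libraries did not overlap, but the gap was small, and with upper-quartile scaling (adjusted p = 0.0311) or a stricter filter on low counts (0.0348) it passed.

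The motors that set spindle length and polarity moved by similar steps. Kif11, which slides antiparallel microtubules apart and keeps the spindle bipolar (chromosome 19, 37376403 to 37421859, plus strand), had 265 and 281 CPM before and 374 and 365 CPM after irradiation (log2 fold change 0.44, SE 0.03, edgeR adjusted p = 3.82e-38). Kif15, which can stand in for Kif11, had 108 and 114 CPM against 143 and 137 CPM (0.34, SE 0.05, edgeR adjusted p = 2.43e-12). Kif18a, which damps chromosome movements at the spindle equator, had 44.6 and 47.1 CPM against 60.6 and 56.3 CPM (0.35, SE 0.07). Kif18b, which trims astral microtubules, had 101 and 105 CPM against 142 and 138 CPM (0.44, SE 0.05). Kif18a and Kif18b passed at edgeR adjusted p = 4.19e-07 and 5.86e-20. All 9 calls held in each of the 4 fits that left out 1 library. Tested against a change of at least 1.2-fold (edgeR's glmTreat), 6 of 10 mitotic motors were higher, where 20.8% of all genes were, and Kif14, Kif18a and Kif23 no longer passed.

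Of the 5 other spindle motors 3 rose, 1 fell and 1 was not tested, where 30.4% of all tested genes were higher and 30.3% lower. Kifc1, which walks to the minus end and gathers spindle poles (chromosome 17, 33875659 to 33890661, minus strand), had 89.2 and 90.7 CPM against 153 and 157 CPM (log2 fold change 0.78, SE 0.05, edgeR adjusted p = 1.23e-59). Its copy Kifc5b had 27.0 and 24.6 CPM against 36.6 and 41.4 CPM (0.60, SE 0.09, edgeR adjusted p = 2.09e-11). Of the 50-base words in the longest Kifc1 transcript 45.8% also occur in Kifc5b, so how reads divide between them is uncertain. Kif20b, a relative of Kif20a that acts late in cytokinesis, had 114 and 109 CPM against 172 and 171 CPM (0.62, SE 0.04, edgeR adjusted p = 5.13e-43). Kif2a, the relative of Kif2c that works at spindle poles and also in resting cells, fell from 94.2 and 90.1 CPM to 74.6 and 67.6 CPM (-0.37, SE 0.05, edgeR adjusted p = 3.82e-11). Kif2a exons overlap those of Dimt1 on the other strand over 19.2% of their length, and Dimt1 also fell (log2 fold change -0.85). Kif2b had 0 counts in 3 libraries and 2 in irradiated replicate 2.

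The transport motors went both ways. Of 18, 16 were tested, and of these 7 rose, 5 fell and 4 did not pass, beside 30.4% higher and 30.3% lower over all genes.  Of the 11 with a mean of at least 10 CPM, 5 fell and 4 rose, where 43.2% and 29.5% of all genes at that level did. Of the 5 under 10 CPM, 3 rose and none fell, with 31.9% and 9.45% of all genes at that level. The median log2 fold change of the 16 tested was 0.20, beside 0.01 over all tested genes. The summed level of the 18 was 1404 and 1383 CPM in unirradiated and 1178 and 1164 CPM in irradiated libraries. That sum leans on the most abundant genes, Kif1c (mean 421 CPM before and 279 after) and Kif5b (281 and 205), and does not describe the class. The ratio of summed mitotic to summed transport CPM was 0.835 and 0.874 before and 1.45 in both libraries after irradiation. An exact permutation test of 2 against 2 libraries can give no p below 0.333.

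**Figure D3:**
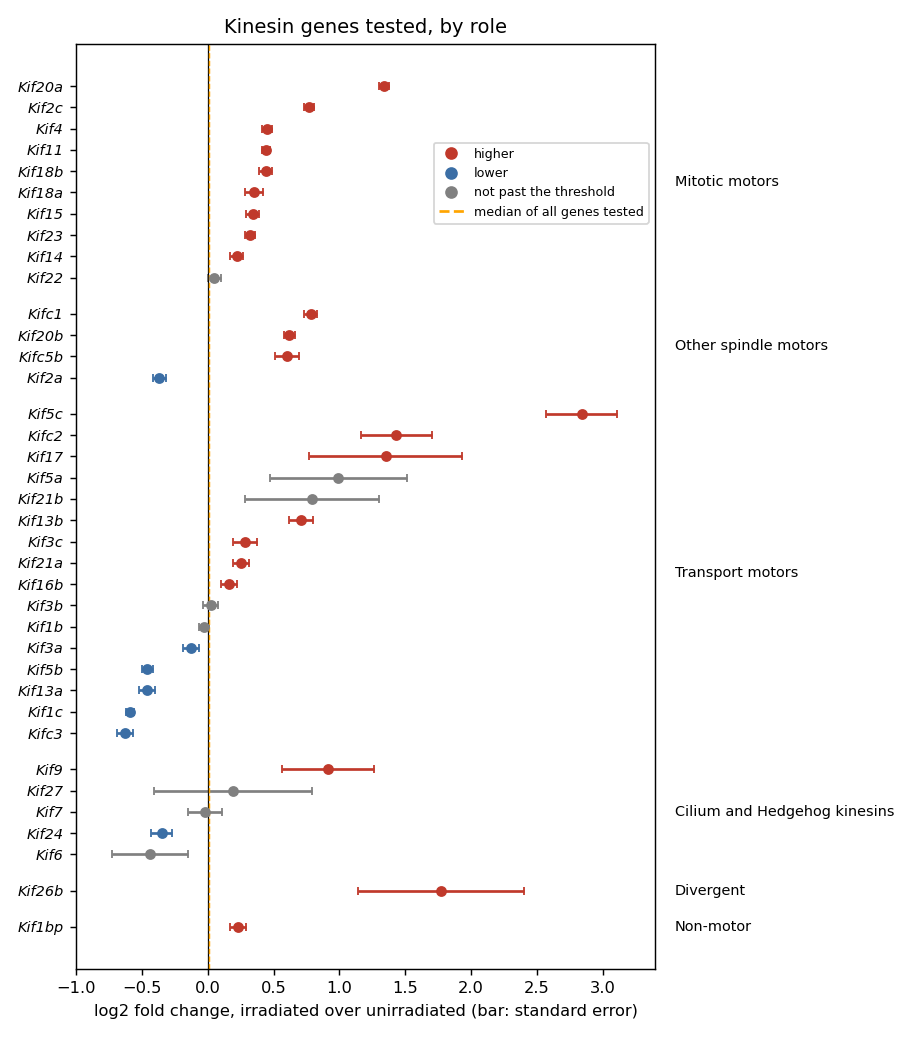
Log2 fold change (x axis, irradiated over unirradiated, bars 1 standard error) of the 37 kinesin genes tested, by role. The mitotic motors lie between 0.05 and 1.34, and the transport motors spread from -0.63 to 2.84.

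The transport motors that fell include the 2 with the highest CPM in unirradiated libraries. Kif1c, a fast carrier of vesicles and integrins (chromosome 11, 70700548 to 70731964, plus strand), fell from 423 and 419 CPM to 285 and 273 CPM, or 1.51-fold (log2 fold change -0.59, SE 0.03, edgeR adjusted p = 5.47e-72). Kif5b, the widely expressed heavy chain of conventional kinesin, or kinesin-1 (chromosome 18, 6201002 to 6242174, minus strand), fell from 286 and 276 CPM to 208 and 202 CPM (-0.46, SE 0.04, edgeR adjusted p = 1.78e-35). Kif13a, which moves endosomes and recycling tubules, fell from 83.8 and 78.6 CPM to 59.8 and 58.5 CPM (-0.46, SE 0.06, edgeR adjusted p = 1.03e-14). Kifc3, a minus-end motor linked to cell junctions, fell from 71.8 and 66.6 CPM to 45.05 and 44.6 CPM (-0.63, SE 0.06, edgeR adjusted p = 7.99e-22). In these 4 genes both irradiated libraries lay below both unirradiated ones, where 38.7% of all tested genes do.

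The steepest rise of any kinesin was in a close relative of Kif5b. Kif5c, a kinesin-1 heavy chain known mainly from neurons (chromosome 2, 49619298 to 49774778, plus strand), had 28 and 30 counts before and 227 and 187 counts after irradiation, or 1.02 and 1.03 against 7.63 and 7.04 CPM. That is 7.14-fold (log2 fold change 2.84, SE 0.27, edgeR adjusted p = 3.47e-24). Kif5c has a mean under 10 CPM, a level at which 31.9% of all tested genes were higher and 9.45% lower. Neuron markers were at or near 0 apart from Tubb3: without irradiation Map2, Rbfox3 and Snap25 had 0 counts, they stayed under 1 CPM after it, and the summed level of 5 neuron markers, nearly all of it Tubb3, was 416 to 421 CPM before and 393 to 411 CPM after. Kif5c remained a minor form. Per kb of exon it made up 0.396% and 0.413% of the kinesin-1 heavy chains in unirradiated and 3.93% and 3.72% in irradiated libraries, while Kif5b made up 99.4% and 99.3% against 95.6% and 95.3%. Kif5a, the third heavy chain, had 16 and 23 counts against 27 and 49 and did not pass (log2 fold change 0.99, SE 0.52, edgeR adjusted p = 0.0862), except without irradiated replicate 1 (adjusted p = 0.0438).

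In 2 further pairs of relatives the more abundant form fell and the rarer one rose. Kif13b, which carries the signalling lipid PIP3 and membrane receptors, rose from 23.1 and 24.7 CPM to 36.2 and 42.2 CPM (log2 fold change 0.71, SE 0.09, edgeR adjusted p = 2.72e-15) while Kif13a fell. The ratio of Kif13b to Kif13a per kb of exon went from 0.171 and 0.196 to 0.376 and 0.448. Kifc2, a minus-end motor, rose from 67 and 44 counts to 154 and 144 counts (1.43, SE 0.27, edgeR adjusted p = 3.46e-07) while Kifc3 fell. Its exons overlap the far more abundant Cyhr1 on the other strand over 4.1% of their length, and Cyhr1 did not pass (0.10, adjusted p = 0.123). In the Kif1 family Kif1b, a carrier of mitochondria and synaptic vesicle precursors, had 235 and 236 CPM against 234 and 227 CPM and did not pass (-0.03, SE 0.04, edgeR adjusted p = 0.504). The Kif2 and Kif20 relatives did not follow that order: Kif2c, at 24.5 CPM per kb without irradiation, rose and the less abundant Kif2a, at 14.4, fell, and both Kif20a and Kif20b rose. Kifc2, like Kif5c, has a mean under 10 CPM, where over all genes more were higher (31.9%) than lower (9.45%). These pairs were singled out after their values were seen.

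**Figure D4:**
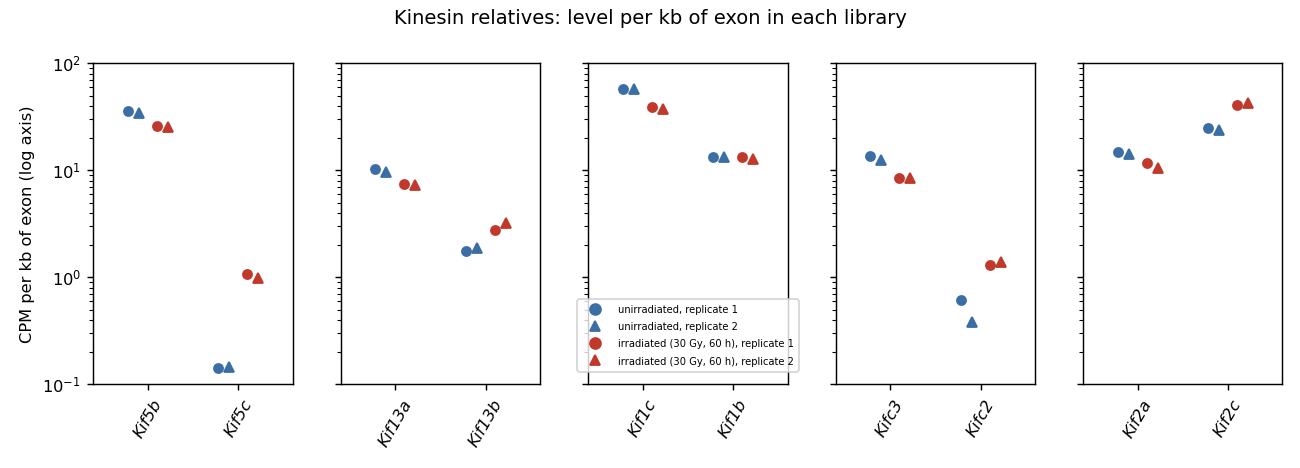
CPM per kb of exon (y axis, log scale) in each library for 5 pairs of related kinesins (circles replicate 1, triangles replicate 2). In the pairs of Kif5b with Kif5c, Kif13a with Kif13b and Kifc3 with Kifc2 the more abundant first gene is lower and the second higher in irradiated libraries. Kif2a is lower and the more abundant Kif2c higher, and in the remaining pair Kif1c is lower while Kif1b did not pass the test.

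The remaining transport motors shifted little or were rare. Of the heterotrimeric kinesin-2 motors, which serve cilia and cytoplasmic transport, Kif3a had 70.2 and 68.9 CPM against 63.7 and 63.0 CPM (log2 fold change -0.13, SE 0.06, edgeR adjusted p = 0.039). That call was lost without unirradiated replicate 1 (adjusted p = 0.0929), irradiated replicate 1 (0.0842) or irradiated replicate 2 (0.132), with DESeq2 (0.0613), without TMM factors (0.274), with upper-quartile factors (0.374) and under a stricter filter (0.297). Kif3b had 54.1 and 54.7 CPM against 54.7 and 55.5 CPM (0.02, SE 0.06, adjusted p = 0.851). Kif3c rose slightly, from 25.1 and 26.9 to 29.4 and 33.8 CPM (0.28, SE 0.09, adjusted p = 0.00414), but not without unirradiated replicate 1 (0.0918) or irradiated replicate 2 (0.187). Its exons overlap those of 1110002L01Rik on the other strand over 35.3% of their length, and 1110002L01Rik also rose (0.48, adjusted p = 0.0316). Kif21a, a regulator of microtubule growth, rose from 63.3 and 64.9 to 75.1 and 77.1 CPM (0.25, SE 0.06, edgeR adjusted p = 4.55e-05). Kif16b, which moves early endosomes, had 63.4 and 62.2 against 71.6 and 68.9 CPM (0.16, SE 0.06, adjusted p = 0.011), and lost its call without unirradiated replicate 2 (0.0833) or irradiated replicate 1 (0.140). Kif17, with 13 and 14 against 24 and 44 counts, passed at adjusted p = 0.0333. It did not pass without unirradiated replicate 1 (0.0841), unirradiated replicate 2 (0.0851) or irradiated replicate 2 (0.512), nor with DESeq2 (0.0707), without a filter (0.0549) or with the replicate number as a block (0.0667). Kif21b had 20 and 23 against 37 and 37 counts and did not pass (0.79, adjusted p = 0.170). Kif1a had 0 counts without irradiation and 4 and 15 counts after it, and Kif28 had 3 counts in irradiated replicate 1 alone. Both were left out by the filter.

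Levels per kb divide by the union of a gene's annotated exons, and on that length the order of the kinesins changed. The union can be far longer than the longest transcript. In Kif11 it spans 7461 bases, while the longest transcript holds 4770 different 50-base words. In Kif20a these values are 4338 and 3625. The order between genes therefore depends on the length used, and no other length was tried. The SD reflects the libraries alone. In unirradiated cells Kif1c was first at 57.8 ± 0.457 CPM per kb (SD, n = 2), followed by Kif11 at 36.6 ± 1.59 and Kif5b at 35.2 ± 0.868, which overlap within their spread. Kif20a was eighth at 22.8 ± 1.65. In irradiated cells Kif20a was first at 57.8 ± 0.333 CPM per kb, followed by Kif11 at 49.6 ± 0.873, Kifc1 at 45.4 ± 0.941 and Kif2c at 41.8 ± 1.35, while Kif1c was sixth at 38.3 ± 1.16, overlapping with Kif18b in the fifth place at 39.1 ± 0.791. Of all counts on the 43 genes, mitotic motors held 38.8% and 39.9% in unirradiated and 49.6% and 49.4% in irradiated libraries. Transport motors held 46.4% and 45.7% before and 34.2% and 34.1% after. The mitotic share was higher and the transport share lower in both irradiated libraries. Like the summed CPM, the transport share leans on Kif1c and Kif5b.

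The kinesins of cilia and of the Hedgehog pathway did not move as a group. Of 5 tested, Kif24, which trims centriolar microtubules and holds back cilium formation, fell from 45.8 and 42.1 to 34.1 and 34.6 CPM (log2 fold change -0.35, SE 0.08, edgeR adjusted p = 1.37e-05). Kif9, a motor of motile cilia, had 32 and 51 against 79 and 75 counts (0.91, SE 0.35, adjusted p = 0.0161), and lost its call without unirradiated replicate 1 (0.160), irradiated replicate 1 (0.0558) or irradiated replicate 2 (0.0917). Kif7, which organizes the tip of the cilium for Hedgehog signalling, had 13.7 and 15.3 against 13.3 and 15.4 CPM (adjusted p = 0.913). Kif6 and Kif27 did not pass (adjusted p = 0.187 and 0.812), and Kif19a had 13 counts in irradiated replicate 2 and 0 elsewhere. Among divergent kinesins Kif26b had 7 and 11 against 27 and 34 counts (1.77, SE 0.63, edgeR adjusted p = 0.00996). With so few unirradiated counts, Kif26b passed the filter on low counts only through its irradiated libraries. Its p-value is therefore not independent of that selection and cannot settle whether the gene rose. The call was also lost without unirradiated replicate 1 or irradiated replicate 2. Kif12 and Kif26a had at most 3 counts in any library. Kif1bp went from 59.1 and 59.3 to 69.2 and 69.6 CPM (0.23, SE 0.06, edgeR adjusted p = 2.91e-04).

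Most partners of the spindle motors rose. Of 20 spindle and midzone genes 16 rose, 1 fell and 3 did not pass, beside 30.4% higher and 30.3% lower over all tested genes, with a median log2 fold change of 0.33 beside 0.01 over all genes. Aurka, the kinase of the spindle poles, and Nusap1, a microtubule bundler, rose most (log2 fold changes 0.97 and 0.91, SE 0.05 and 0.04). Cenpe, a kinetochore kinesin whose symbol falls outside the naming rule, rose from 361 and 379.7 to 489 and 497 CPM (0.41, SE 0.03, edgeR adjusted p = 1.04e-39). The partners did not all move with their motor. Prc1, which recruits Kif4 to the midzone, rose (0.61), as did Cit, the kinase that binds Kif14 (0.76). Racgap1, the partner of Kif23 in centralspindlin, fell slightly from 444 and 456 to 429 and 421 CPM (-0.08, SE 0.03, edgeR adjusted p = 0.0126). Of the passenger complex that Kif20a carries, Birc5 and Cdca8 rose (0.22 and 0.33), while Aurkb and Incenp did not pass (-0.09 and 0.04, adjusted p = 0.0757 and 0.388). Cenpe, Prc1, Cit and the passenger genes were named after their values were seen. Near-start CHR hexamers stood in 13 of 19 promoters of these genes, of 17 genes with an entry, and in 0 of 15 promoters of the light chains and adaptors described next.

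Of 15 light chains and cargo adaptors 5 were higher, 6 lower and 4 not past the threshold (median log2 fold change -0.01), shares near those over all tested genes (30.4% higher and 30.3% lower). The largest change was in Klc2, a light chain that links Kif5 heavy chains to cargo. Klc2 fell from 56.7 and 55.6 CPM to 15.0 and 15.2 CPM, or 3.72-fold (-1.89, SE 0.09, edgeR adjusted p = 1.87e-103). Klc1, the most abundant light chain, fell from 372 and 371 to 242 and 247 CPM (-0.60, SE 0.03, edgeR adjusted p = 1.76e-69), whereas Klc4 rose from 9.17 and 9.76 to 17.5 and 18.8 CPM (0.94, SE 0.13, edgeR adjusted p = 1.03e-11). Klc3 was rare and did not pass (0.46, SE 0.64, adjusted p = 0.554). Mapk8ip1, a scaffold that links kinesin-1 to JNK signalling, rose most on the list (1.06, SE 0.09), and its relative Mapk8ip3 fell (-0.55, SE 0.04). Rhot1 and Rhot2, the mitochondrial anchors for kinesin-1, fell (-0.49 and -0.52), and Kidins220, a neuronal receptor scaffold that kinesin-1 carries, rose (0.58). Klc3, Mapk8ip3, Rhot1, Rhot2 and Kidins220 were named after their values were seen.

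Cytoplasmic dynein, the opposing motor that walks to the minus end, and its activator dynactin had 5 of 16 tested genes higher, 6 lower and 5 not past the threshold (median log2 fold change -0.02), again near the shares over all tested genes. The heavy chain Dync1h1 rose from 621 and 591 to 866 and 878 CPM (0.53, SE 0.03, edgeR adjusted p = 1.04e-86), and so did the light chain Dynll2 (0.64, SE 0.04). Dynll1 and Dynlrb1, further light chains, fell most (both -0.37, SE 0.05). Among 17 genes of the complexes that read CHR, CCAAT and E2F elements, 2 rose, 9 fell and 6 did not pass (median log2 fold change -0.12). Over all tested genes 30.4% were higher and 30.3% lower. At a mean of at least 10 CPM, which all of the 17 but Lin37 reach, the shares were 29.5% and 43.2%. The count of lower genes is nearer the share at that level than the share over all genes. The count of higher genes lies below both shares. All 3 subunits of the CCAAT-binding factor NF-Y fell: Nfya (-0.68, SE 0.05), Nfyb (-0.58, SE 0.08) and Nfyc (-0.40, SE 0.08). E2f4 and E2f2 fell most on the list (-0.87 and -0.78), and Rbl2 and Lin54 rose (0.55 and 0.41). Parts of the DREAM complex went both ways: Rbl2 and Lin54 rose, while E2f4, Rbl1 (-0.74), Tfdp1 (-0.41) and Rbbp4 (-0.12) fell. Its parts Lin9, Lin37 and Lin52 did not pass. Foxm1, an activator of G2 and mitotic genes, fell from 233 and 236 to 201 and 205 CPM (-0.21, SE 0.04, edgeR adjusted p = 7.69e-08), and its partner Mybl2 did not pass (-0.09, adjusted p = 0.170). NF-Y, Foxm1, Mybl2, Rbl1, Tfdp1, Rbbp4, Lin9, Lin37 and Lin52 were named after their values were seen. These are message levels, and the proteins' activity was not measured.

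**Figure D5:**
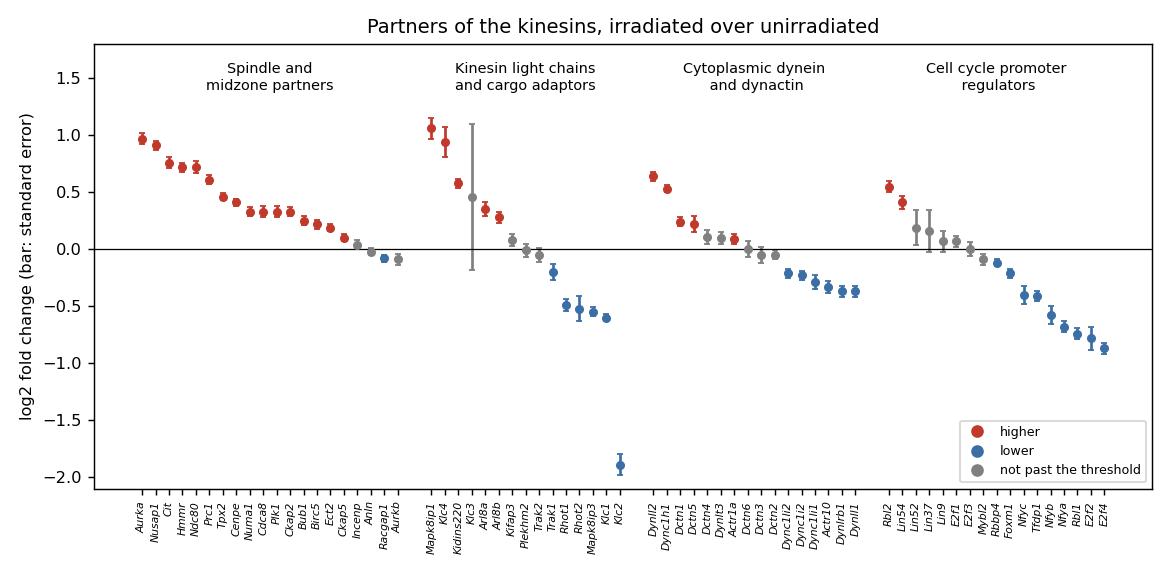
Log2 fold change (y axis, irradiated over unirradiated, bars 1 standard error) of partner genes in 4 lists, each ordered by its change. In the list of spindle partners 16 of 20 rose, while Klc2 at -1.89 is the lowest point of all 4 lists.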

How the data were processed

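Bulk RNA-seq was available for 4 libraries. The deposited values are whole-number counts per Ensembl gene, neither normalized nor pooled. Per the submitters' processing notes, the tools were HISAT2 (also listed as HISAT), HTSeq and DESeq2, with the mm10 build. Their versions, the annotation release and the strand setting are not stated in those notes or the labels, so reads of overlapping genes cannot be told apart: 10 tested members overlap a gene with over 10% as many counts. A result that needs a withheld item is not reported here. Groups follow the sample titles, and the description of unirradiated replicate 2 carries the other replicate's number. Of 26561 IDs, 26372 matched GENCODE M21.

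Counts were fitted with edgeR 4.0.16 in R 4.3.3 (TMM, filterByExpr, robust glmQLFit, glmQLFTest), with Benjamini-Hochberg adjustment over 15298 genes holding 99.9% of counts. A gene rose or fell at an adjusted p under 0.05. CPM use TMM-scaled library sizes, and levels per kb divide by the union of exons. SE is the absolute log2 fold change over the square root of F. For 90.0% of genes the spread came wholly from the fitted trend. The pipeline was tested on simulated data.

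Members, lists and the naming rule were chosen with earlier results of these data known. The rule named every member and, for each partner list, its 2 most changed genes each way. Alternatives were other scalings, filters, DESeq2 1.42.0, glmTreat, a replicate block and leaving out each library. Promoters are RefSeq entries (GRCm38.p6), found for 33 of 43 members.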

Additional observations from a re-analysis of the deposited data

How the results depend on the processing

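Over 11 alternatives, values of the 37 tested kinesin genes kept their direction and side of the threshold 352 times, lost the call 32 times, gained it 3 times and turned direction 13 times, and 25 genes kept both in every alternative that was run for them other than glmTreat (the stricter filter left 7 genes untested). Mitotic motors were higher in 9 or 10 of 10 under every alternative but glmTreat, which gave 6. Against a change of 1.2-fold, 14 kinesin genes were higher in place of 22, transport motors higher were 3 in place of 7, and lower calls over all genes were 2791 in place of 4634; this test asks for a larger change. Leaving out 1 library gave 18 to 22 kinesin genes higher and 6 or 7 lower, with 5 to 8 transport motors higher and 4 or 5 lower. The median log2 fold change of mitotic minus that of transport motors was 0.19. It was 0.38 under the stricter filter (at least 5 CPM in 2 libraries), which leaves out the transport motors Kif17, Kif21b and Kif5a, and 0.16 to 0.24 when 1 library was left out. The genes that turned sign had no call in any fit. Kif1b, Kif7 and Kif3b lay near 0. Kif1b was at 0.029 without TMM factors, 0.042 with upper-quartile factors and 0.036 under the stricter filter. Kif7 was at 0.040, 0.053 and 0.046 in these fits, and at -0.14 to 0.084 when 1 library was left out. Kif3b was at -0.0049 without a filter and at -0.0071 to 0.021 when 1 library was left out. Kif27, with only 10 to 30 counts per library, ran from -0.60 to 0.96 when 1 was left out. The other scalings moved the median over all genes by at most 0.071.

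Deviations of same-numbered libraries had a correlation of -0.0106 over genes. The labels do not say whether these libraries pair, and this value, which includes many genes of low counts, cannot settle it. With the replicate block 21 kinesin genes were higher and 7 lower, and Kif17 alone lost its call. Members under about 1 CPM rest on few counts, and no change could be tested for the 6 left out.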
